A study of Mus musculus with 12 samples.

Results

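Receptors for serotonin, dopamine, noradrenaline, histamine and acetylcholine were followed through 12 mouse hippocampus RNA libraries. All genes whose mouse symbol names a receptor or receptor subunit for one of these transmitters were taken (Htr, Drd, Adra, Adrb, Hrh, Chrm, Chrna and Chrnb genes), which gave 50 of the 36119 genes in the table. The animals were C57BL/6 mice killed at postnatal day 70, with 3 in each of 4 groups. Ethanol mice had been given ethanol at 2.5 g/kg under the skin, dissolved in saline of 0.15 M, on postnatal days 6 and 7, with 2 doses per day spaced 2 hours apart. Saline mice got a matched volume of the same saline. From day 21 enriched mice lived in large cages of 2 to 6 littermates of one sex, with running wheels, ladders, toys and extra nest material, while standard mice lived in ordinary cages. The groups are called enriched ethanol, enriched saline, standard ethanol and standard saline. The exposure is labelled prenatal, but every injection fell after birth. It models the period of brain growth that falls late in human pregnancy. The labels used here do not give the sex, litter or cage of each mouse. The p-values therefore describe how these libraries vary, which may be less than litters or cages vary.

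The transmitters behind these receptors reach the hippocampus along axons of nerve cells that lie elsewhere. Acetylcholine comes from the medial septum, noradrenaline from the locus coeruleus, serotonin from the raphe nuclei, histamine from the tuberomammillary nucleus and dopamine from the midbrain and the locus coeruleus. Receptors on hippocampal cells are transcribed in those cells, while receptors on the incoming axons are transcribed in the distant nerve cells. Most of the receptors act through G proteins: Gs raises cyclic AMP, Gi/o lowers it, and Gq activates phospholipase C. Nicotinic receptors and the serotonin 5-HT3 receptor are ion channels assembled from subunits.

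Values are the authors' deposited TPM, a level per transcript length and per library that can be compared between genes. The sequencing depth is unknown, so no counting interval is given, and a value of 0 says only that a gene is listed at 0. The column sums lay between 973187 and 1024536. No 2 libraries were identical, and Spearman correlations between them ran from 0.976 to 0.989 over the genes tested. Hippocampal markers were present: all 10 dentate granule cell markers, 7 of 7 CA1 markers found in the table and 8 of 9 CA2 and CA3 markers found there had a mean of at least 1. Standard saline 2 stood apart, with the highest mean deviation for dentate granule cell markers (0.59 log2 units) and the lowest for neocortex and subiculum (-0.58), striatal (-0.59) and meningeal (-0.95) markers. Enriched saline 3 had the highest deviation for neocortex and subiculum markers (0.31), whose sum was 276.4 TPM there, against 142.3 TPM in standard saline 2. Enriched saline 2 had a summed choroid plexus marker level of 7831, against 436 in standard ethanol 1 and 35.4 to 139.6 in the other 10 libraries.

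The promoters of 2 neighbouring subunit genes are shown because the pair lies close together and differs in level. Chrna5, Chrna3 and Chrnb4 lie side by side on chromosome 9 and encode subunits that are made together in autonomic ganglia and the medial habenula. Chrna5 (chr9:54980880-55007779, plus strand) ends 2331 bases before Chrna3 (chr9:55010111-55026562, minus strand), so they face each other. The 250 bases before each start are given 5′ to 3′ on the gene's own strand, from RefSeq on GRCm38.p6, for Chrna5 at chr9:54980630-54980879 and for Chrna3 at chr9:55026563-55026812. Capitals mark TGACG, the core letters of the cyclic AMP response element, in Chrna5, and CCGCCC, the reverse complement of the GC box letters GGGCGG, in Chrna3.
Chrna5: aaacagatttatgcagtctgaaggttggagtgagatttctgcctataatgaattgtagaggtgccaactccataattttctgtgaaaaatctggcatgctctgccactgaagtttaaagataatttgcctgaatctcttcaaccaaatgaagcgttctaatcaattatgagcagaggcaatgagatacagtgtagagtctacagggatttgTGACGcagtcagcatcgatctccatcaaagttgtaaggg
Chrna3: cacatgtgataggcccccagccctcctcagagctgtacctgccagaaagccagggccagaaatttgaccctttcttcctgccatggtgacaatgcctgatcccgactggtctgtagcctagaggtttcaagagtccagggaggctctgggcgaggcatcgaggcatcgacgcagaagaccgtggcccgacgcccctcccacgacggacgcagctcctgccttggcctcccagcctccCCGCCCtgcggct
The first base of the marked run lies 39 bases before the start in Chrna5 and 13 bases before it in Chrna3. The GC content of the windows was 40% for Chrna5 and 63.2% for Chrna3.

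RefSeq promoter windows were matched for 38 of the 50 genes. Their median GC content over the 250 bases was 59.6%, with a range of 37.6% to 82%, against 52% for all 27025 windows. On either strand, GGGCGG was found in 19 of the 38 windows (50%), against 33.0% of all windows. CCAAT was found in 12 (31.6%), against 34.5%, TGACG in 6 (15.8%), against 17.8%, and TATAAA in 2 (5.26%), against 13.0%. These are matches of letters only.

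The receptor genes spanned a wide range of levels, and 36 of the 50 passed the filter for testing, a mean of at least 1 TPM over the 12 libraries. Chrm1, which encodes the M1 muscarinic receptor of pyramidal and granule cells, was the highest with a mean of 66.4 TPM and was the one member above 50 TPM. It was followed by Chrm3 (40.5 TPM), Adra1d (31.8 TPM), Chrna7 (26.9 TPM), Chrnb2 (22.3 TPM), Hrh3 (21.6 TPM) and Chrm4 (21.4 TPM). In this order the range of Chrm1 over libraries, 54.2 to 77.4 TPM, did not overlap that of Chrm3, 34.6 to 45.7 TPM, while every later pair of neighbours overlapped. In all, 13 members averaged at least 10 TPM. The median of the 36 was 8.07 TPM, against 20.9 TPM for the 14109 protein-coding genes that passed the same filter.

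**Figure D1:**
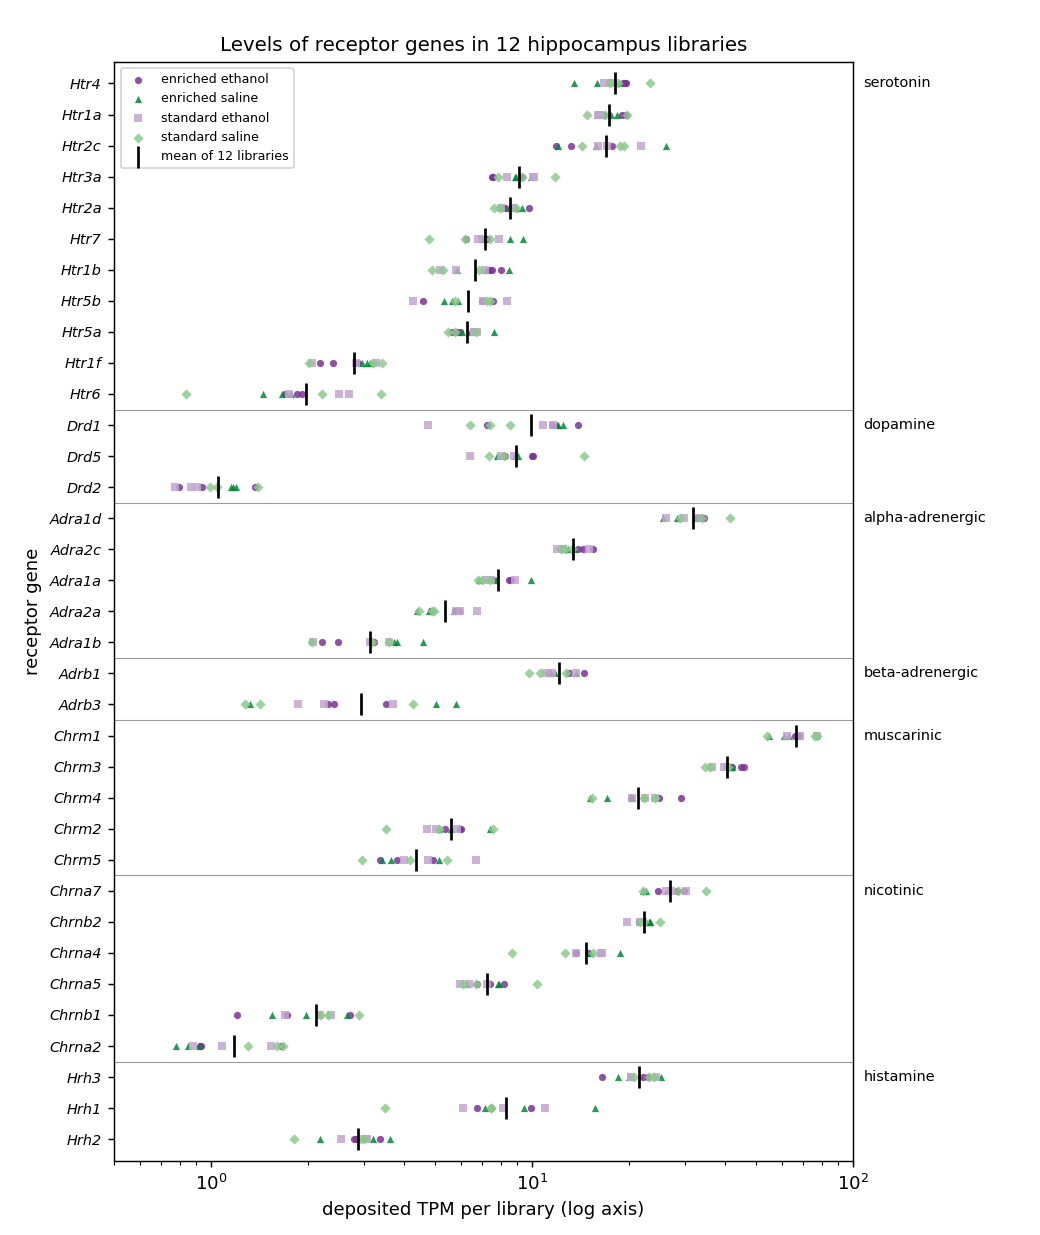
Deposited TPM (log axis) of all but 1 of the 36 receptor genes with a mean of at least 1, one row per gene, with 1 point per library coloured by group and a black bar at the mean of 12 libraries. Rows are grouped by transmitter family. Chrm1 sits highest at 54.2 to 77.4 TPM, Drd2 lowest at 0.773 to 1.41 TPM, and the 4 groups overlap for most genes.

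By family, muscarinic receptors held 30.8% of the summed level of the 50 genes and serotonin receptors 22.8%. Nicotinic subunits held 17.2%, alpha-adrenergic receptors 13.7%, histamine receptors 7.29%, dopamine receptors 4.48% and beta-adrenergic receptors 3.74%. Genes of Gq-coupled receptors made up 42.0% of the sum, those of Gi/o-coupled receptors 22.7%, ion channel subunits 19.2% and genes of Gs-coupled receptors 14.6%. Htr5b, to which no coupling was assigned, held 1.41%. The sum over the 50 genes was between 453.9 and 468.5 TPM in enriched ethanol libraries, 431.1 and 468.4 TPM in enriched saline, 442.1 and 460.7 TPM in standard ethanol, and 412.1 and 463.9 TPM in standard saline. These ranges overlap between all groups.

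Among muscarinic receptors, Chrm1 gave 48.0% of the family sum. It was at 68.1, 66.0 and 67.5 TPM in enriched ethanol, 63.1, 54.7 and 61.2 TPM in enriched saline, 77.3, 68.4 and 62.3 TPM in standard ethanol, and 54.2, 77.4 and 76.5 TPM in standard saline. Standard saline thus held both the lowest and the highest library. Chrm4, the Gi/o-coupled M4 receptor, was at 24.9, 29.2 and 20.4 TPM in enriched ethanol, 17.2, 15.2 and 20.5 TPM in enriched saline, 20.5, 22.6 and 24.2 TPM in standard ethanol, and 24.2, 15.4 and 22.4 TPM in standard saline. The lowest values lay in enriched saline 2 and standard saline 2. Chrm2, an inhibitory autoreceptor of cholinergic terminals, averaged 5.61 TPM, and Chrm5, the muscarinic receptor best known from dopamine neurons, averaged 4.36 TPM.

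The serotonin receptors were more evenly spread. Htr4, a Gs-coupled receptor, led with 17.7% of the family sum, and Htr1a, the inhibitory receptor of pyramidal cells, averaged 17.3 TPM. Htr4 was at 19.7, 19.3 and 19.5 TPM in enriched ethanol, 15.98, 18.7 and 13.6 TPM in enriched saline, 17.5, 17.8 and 16.8 TPM in standard ethanol, and 17.5, 23.4 and 18.6 TPM in standard saline. The ethanol libraries lay close together and the saline libraries spread widely. Htr2c, a Gq-coupled receptor that is also a hallmark of the choroid plexus, was at 13.3, 11.9 and 17.7 TPM in enriched ethanol, 12.1, 26.1 and 15.8 TPM in enriched saline, 21.9, 17.2 and 16.1 TPM in standard ethanol, and 18.9, 14.3 and 19.3 TPM in standard saline. Its 2 highest libraries, enriched saline 2 and standard ethanol 1, were those with the highest choroid plexus marker sums, of 7831 and 436. The part of choroid plexus tissue in the level of Htr2c was not tested.

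The other serotonin receptors with a mean of at least 1 TPM were Htr3a (9.14 TPM), the channel subunit of a class of interneurons, Htr2a (8.57 TPM), Htr7 (7.14 TPM), Htr1b (6.64 TPM), Htr5b (6.34 TPM), Htr5a (6.29 TPM), Htr1f (2.78 TPM) and Htr6 (1.98 TPM). Htr7, a Gs-coupled receptor, was at 6.23, 7.19 and 7.26 TPM in enriched ethanol, 7.04, 8.52 and 9.36 TPM in enriched saline, 6.81, 7.88 and 6.98 TPM in standard ethanol, and 6.19, 4.77 and 7.39 TPM in standard saline. Htr5a, a Gi/o-coupled receptor, was at 5.98, 5.65 and 5.86 TPM in enriched ethanol, 6.40, 6.08 and 7.61 TPM in enriched saline, 6.64, 6.60 and 6.73 TPM in standard ethanol, and 5.77, 5.49 and 6.72 TPM in standard saline. Both had their highest value in enriched saline 3 and their lowest in standard saline 2. Htr3a and Htr3b, which encode the 2 classical 5-HT3 subunits, lie 23908 bases apart on chromosome 9. Htr3b was listed at 0 in 9 libraries and averaged 0.0245 TPM. Htr2b averaged 0.910 TPM, just under the filter, and Htr1d 0.314 TPM.

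The nicotinic subunits were led by Chrna7, which forms channels by itself, and by Chrna4 and Chrnb2, which assemble together. Chrna7 was at 28.3, 24.8 and 29.7 TPM in enriched ethanol, 26.3, 22.2 and 22.7 TPM in enriched saline, 30.2, 27.1 and 26.3 TPM in standard ethanol, and 22.1, 34.8 and 28.6 TPM in standard saline. Its lowest and highest libraries were again both standard saline. Chrnb2 was at 21.5, 22.3 and 21.5 TPM in enriched ethanol, 23.4, 23.1 and 23.4 TPM in enriched saline, 19.8, 21.7 and 22.2 TPM in standard ethanol, and 21.7, 25.1 and 22.3 TPM in standard saline. Chrna4 was at 13.7, 14.9 and 13.7 TPM in enriched ethanol, 15.2, 16.3 and 18.8 TPM in enriched saline, 13.8, 16.4 and 16.5 TPM in standard ethanol, and 12.7, 8.70 and 15.5 TPM in standard saline. The 8.70 TPM of Chrna4 came from standard saline 2.

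Accessory and peripheral nicotinic subunits were low. Chrna5, an accessory subunit, averaged 7.25 TPM, which is 8.56 times the 0.847 TPM of its neighbour Chrna3, whose promoter is printed above. Chrna3 in turn was 6.07 times Chrnb4 (0.139 TPM), 1591 bases further on. Chrna2, a subunit of a class of interneurons of the stratum oriens, was at 1.65, 0.924 and 0.932 TPM in enriched ethanol, 0.780, 0.846 and 0.918 TPM in enriched saline, 1.54, 1.081 and 0.876 TPM in standard ethanol, and 1.30, 1.60 and 1.67 TPM in standard saline, with 1 high library in each ethanol group. Chrnb1, a muscle subunit, averaged 2.12 TPM and Chrna1, its partner in muscle, 0.750 TPM. Chrnb3 averaged 0.640 TPM and Chrna6, 3481 bases away on chromosome 8, averaged 0.158 TPM. Medial habenula and thalamus markers, of which 8 of 10 had a mean of at least 1, summed to between 67.4 and 72.7 TPM in enriched ethanol, 65.0 and 77.1 TPM in enriched saline, 63.6 and 70.8 TPM in standard ethanol, and 60.5 and 69.6 TPM in standard saline. Gbx2 was listed at 0 in 5 libraries, and the part of such tissue in these low subunits was not tested. Chrna10 was listed at 0 in 6 libraries. Chrna9, a subunit of hair cells, was listed at 0 in 11 libraries and stood at 0.667 TPM in enriched saline 2, the library rich in choroid plexus markers.

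For noradrenaline, Adra1d made up 51.4% of the alpha-adrenergic sum and Adrb1 72.0% of the beta-adrenergic sum. Adra1d was at 33.8, 34.4 and 33.0 TPM in enriched ethanol, 28.3, 25.7 and 32.3 TPM in enriched saline, 33.3, 29.8 and 26.1 TPM in standard ethanol, and 29.0, 41.5 and 33.9 TPM in standard saline, with the peak in standard saline 2. Adrb1 was at 13.1, 14.6 and 11.3 TPM in enriched ethanol, 11.8, 11.3 and 13.8 TPM in enriched saline, 11.5, 11.1 and 13.7 TPM in standard ethanol, and 12.8, 10.6 and 9.81 TPM in standard saline, and all 4 groups overlapped. Adra1b, a Gq-coupled receptor, was at 2.22, 3.21 and 2.49 TPM in enriched ethanol, 3.79, 3.73 and 4.59 TPM in enriched saline, 3.13, 2.08 and 3.58 TPM in standard ethanol, and 3.59, 2.06 and 3.17 TPM in standard saline, and the standard groups overlapped. Adra2c averaged 13.4 TPM and Adra2a 5.35 TPM, both genes of Gi/o-coupled receptors. Adra1a averaged 7.82 TPM and Adrb3 2.93 TPM, and Adra2b averaged 0.251 TPM.

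For histamine, Hrh3, the inhibitory receptor of nerve terminals, held 65.7% of the sum. It was at 22.3, 23.0 and 16.5 TPM in enriched ethanol, 20.1, 18.6 and 25.3 TPM in enriched saline, 20.3, 20.3 and 24.3 TPM in standard ethanol, and 20.8, 23.2 and 24.0 TPM in standard saline, and all groups overlapped. Hrh1 averaged 8.33 TPM and Hrh2 2.86 TPM. Hrh4, a receptor of blood cells, was listed at 0 in 11 libraries.

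For dopamine, Drd1 and Drd5, both Gs-coupled, averaged 9.91 and 8.94 TPM, while the Gi/o-coupled Drd2 averaged 1.05 TPM, just inside the filter. Drd1 was at 7.23, 11.6 and 14.0 TPM in enriched ethanol, 12.06, 11.96 and 12.50 TPM in enriched saline, 4.74, 10.9 and 11.6 TPM in standard ethanol, and 8.55, 6.43 and 7.42 TPM in standard saline. Both ethanol groups held 1 low library, while the enriched saline libraries lay together above all standard saline libraries. Drd4 averaged 0.146 TPM and Drd3 0.0874 TPM, with Drd3 listed at 0 in 7 libraries, among them every saline library. The striatum is the richest site of Drd1, so striatal markers were read beside it. All 10 were in the table and 8 had a mean of at least 1, and their sum was 129.4 to 136.0 TPM in enriched ethanol, 145.8 to 159.8 TPM in enriched saline, 130.4 to 137.0 TPM in standard ethanol and 127.3 to 128.6 TPM in standard saline. Isl1 and Six3, which mark striatal precursors and neurons, averaged 0.111 and 0.0628 TPM and were listed at 0 in 8 and 3 libraries. The part of striatal tissue in the level of Drd1 was not tested.

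Testing all 14947 genes with limma, no receptor gene passed an adjusted p of 0.05 in any of the 7 comparisons made. The smallest adjusted p among the 36 tested members was 0.421, and it belonged to Chrna4 for enrichment in saline mice. The counts that follow therefore use weaker criteria, an unadjusted p under 0.05 or groups of 3 libraries that do not overlap, and are set beside the share of all tested genes that meet them. The comparisons share groups with one another. In bulk tissue, fewer cells of a type and less RNA per cell cannot be told apart.

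**Figure D2:**
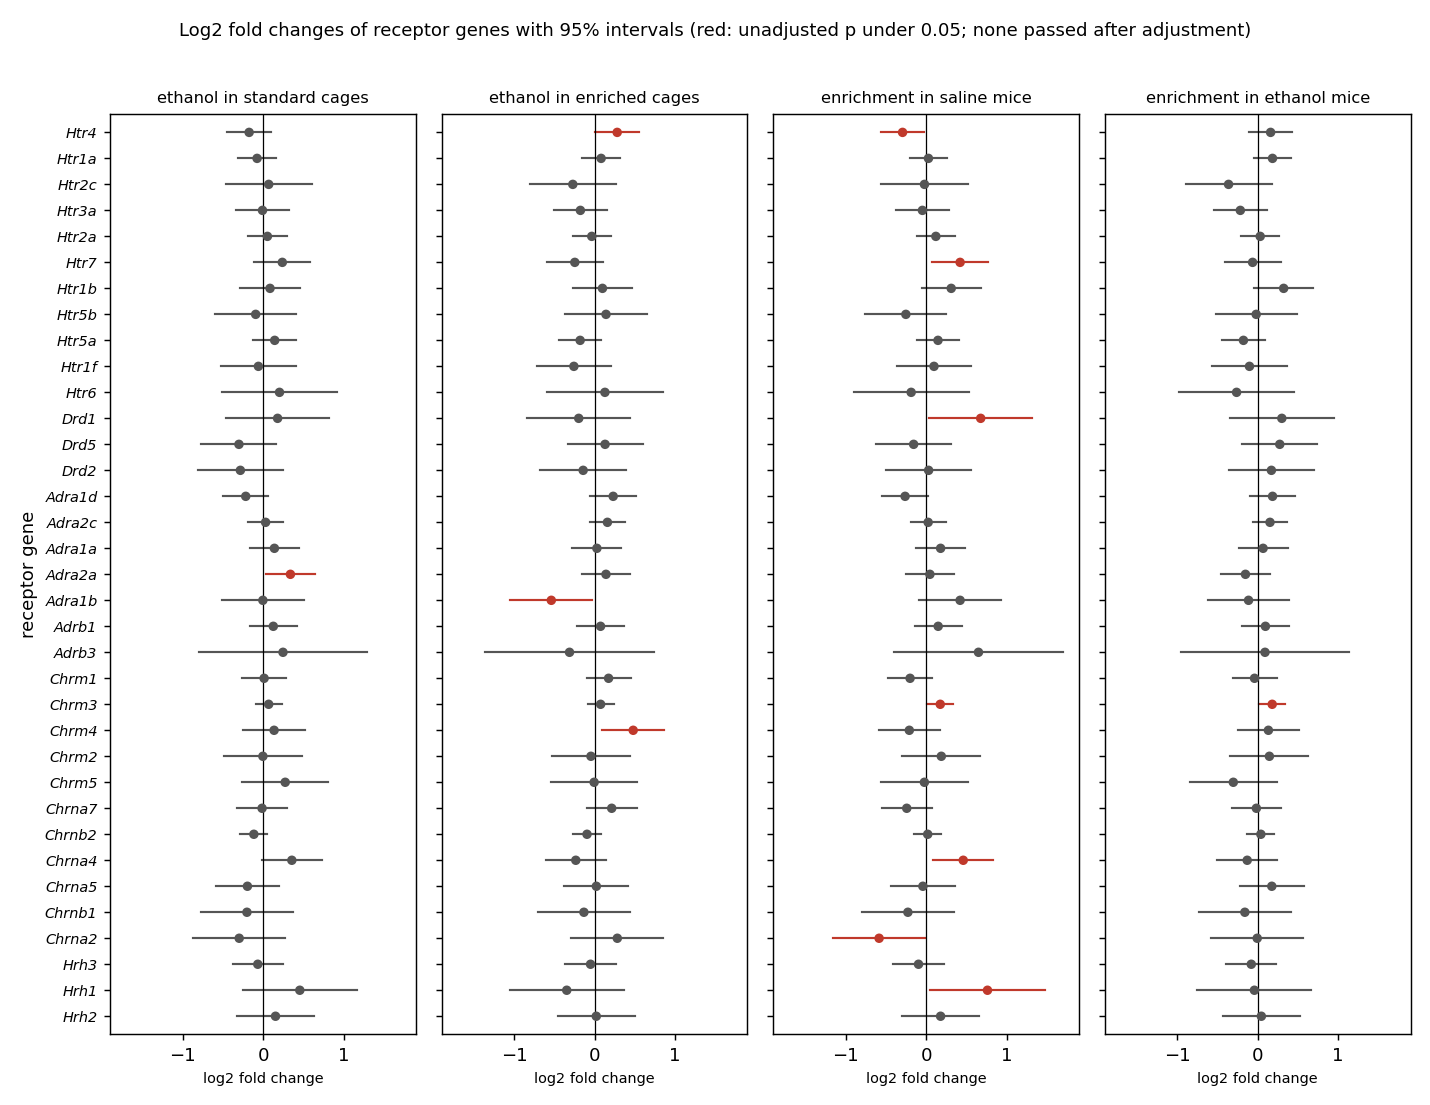
Log2 fold changes of all but 1 of the 36 receptor genes tested (x axis, with 95% intervals from the limma fit) for ethanol in each housing and for enrichment in each exposure, one row per gene. Red marks an unadjusted p under 0.05: 1, 3, 7 and 1 genes in the 4 panels from left to right, with no gene passing after adjustment.

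Early ethanol in standard cages left no receptor gene past the adjusted threshold, which 0.0134% of all genes passed. Adra2a, an inhibitory autoreceptor of noradrenergic neurons that also sits on their targets, had the smallest p. It was at 6.76, 5.98 and 5.78 TPM in standard ethanol, against 4.89, 4.45 and 4.96 TPM in standard saline. All 3 ethanol libraries exceeded all 3 saline ones, with a log2 fold change of 0.34 (SE 0.14, adjusted p = 0.613). Adra2a alone had an unadjusted p under 0.05 in the higher direction, 1 of 36 or 2.78% of members against 3.75% of all genes, and 0 members had one in the lower direction, against 3.64%. Libraries did not overlap for Adra2a and Drd2, 2 of 36 or 5.56% of members against 12.1% of all genes. The median log2 fold change was 0.02 over members and 0.00 over all genes. Next by p were Chrna4, averaging 15.6 TPM in standard ethanol and 12.3 TPM in standard saline (0.36, SE 0.17, adjusted p = 0.682), and in the other direction Adra1d, averaging 29.7 TPM in standard ethanol and 34.8 TPM in standard saline (-0.22, SE 0.13, adjusted p = 0.757), and Chrnb2 (-0.11, SE 0.08, adjusted p = 0.796). Without standard saline 2 the value of Chrna4 was 0.14 and that of Adra1d was -0.08, and without standard saline 3 that of Chrna4 was 0.54. Leaving out standard saline 1 gave Adra1d -0.34 and leaving out standard ethanol 3 gave it -0.13. For Chrnb2 the value was -0.05 without standard saline 2 and -0.07 without standard ethanol 1.

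Early ethanol in enriched cages gave Chrm4 the smallest p. Chrm4 averaged 24.9 ± 4.40 TPM in enriched ethanol and 17.6 ± 2.67 TPM in enriched saline (SD, n = 3 each), or 0.48 on the log2 scale (SE 0.17, limma adjusted p = 0.592), and 1 ethanol library lay below the highest saline library. Htr4 was higher in all 3 enriched ethanol libraries, at 19.5 ± 0.199 TPM, against 16.1 ± 2.57 TPM in enriched saline (0.28, SE 0.12, limma adjusted p = 0.630, SD, n = 3 each). Without enriched saline 3 the value of Htr4 was 0.17. Adra1b was at 2.22, 3.21 and 2.49 TPM in enriched ethanol, against 3.79, 3.73 and 4.59 TPM in enriched saline, with no overlap (-0.54, SE 0.23, adjusted p = 0.630). These were the members with an unadjusted p under 0.05: 2 higher (5.56%, against 3.85% of all genes) and 1 lower (2.78%, against 3.91%). After adjustment 0.00% of all genes passed. Htr7 followed in the lower direction (-0.25, SE 0.16, adjusted p = 0.716), at -0.16 without enriched saline 3.

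Libraries of the 2 enriched groups did not overlap for 10 of the 36 members, 27.8% against 15.2% of all genes. Higher in enriched ethanol were Htr4, Chrm1, Adra1d, Adra2c and Chrna2, and higher in enriched saline were Adra1b, Chrna4, Chrnb2, Htr1f and Htr5a. The differences were small for the abundant genes: Chrm1 averaged 67.2 TPM in enriched ethanol and 59.7 TPM in enriched saline (0.17, adjusted p = 0.750), and Chrnb2 21.8 TPM in enriched ethanol and 23.3 TPM in enriched saline (-0.09, adjusted p = 0.785). The median log2 fold change over members was 0.01, against -0.01 over all genes. For Htr2c the log2 fold change of -0.27 became 0.03 when enriched saline 2, the library rich in choroid plexus markers, was left out.

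Enrichment in saline mice gave the most members of the 7 comparisons an unadjusted p under 0.05: 5 higher (13.9%, against 5.43% of all genes) and 2 lower (5.56%, against 4.60%). The higher ones were Chrna4, Htr7, Drd1, Hrh1 and Chrm3, and the lower ones Htr4 and Chrna2. None passed after adjustment, as 0.0268% of all genes did. Chrna4 averaged 16.8 ± 1.86 TPM in enriched saline and 12.3 ± 3.44 TPM in standard saline (SD, n = 3 each), or 0.46 on the log2 scale (SE 0.17, limma adjusted p = 0.421). Htr7 was at 7.04, 8.52 and 9.36 TPM in enriched saline, against 6.19, 4.77 and 7.39 TPM in standard saline (0.42, SE 0.16, adjusted p = 0.425), and the groups overlapped. Both genes had their lowest value of all 12 libraries in standard saline 2, and without it the values were 0.24 for Chrna4 and 0.27 for Htr7.

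Drd1 did not overlap between the groups, at 12.06, 11.96 and 12.50 TPM in enriched saline, against 8.55, 6.43 and 7.42 TPM in standard saline (0.68, SE 0.29, adjusted p = 0.480). Without standard saline 2 the value was 0.58, and the striatal marker sums given above were likewise higher in every enriched saline library than in every standard saline library. Hrh1, a Gq-coupled receptor, was at 9.42, 7.15 and 15.7 TPM in enriched saline, against 7.46, 3.49 and 7.44 TPM in standard saline (0.76, SE 0.33, adjusted p = 0.475). The value was 0.46 without enriched saline 3, its highest library, and 0.43 without standard saline 2, its lowest.

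Chrna2 was at 0.780, 0.846 and 0.918 TPM in enriched saline, against 1.30, 1.60 and 1.67 TPM in standard saline (-0.58, SE 0.26, adjusted p = 0.490), with no overlap. Htr4 averaged 16.1 TPM in enriched saline and 19.8 TPM in standard saline (-0.29, SE 0.12, adjusted p = 0.473), with overlap, and the value was -0.17 without standard saline 2 and -0.18 without enriched saline 3. Libraries did not overlap for Chrm3, Drd1, Adra1b and Chrna2, 4 of 36 or 11.1% against 14.0% of all genes. The median log2 fold change was 0.03 over members and 0.00 over all genes. Leaving out standard saline 2 left 1 member with an unadjusted p under 0.05 in place of 7, and leaving out standard saline 1 gave 13. No share of all genes was computed with these libraries left out, so the 2 counts have nothing to be set beside.

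Enrichment in ethanol mice gave 1 member an unadjusted p under 0.05. Chrm3, the Gq-coupled M3 receptor, was at 45.7, 44.9 and 42.0 TPM in enriched ethanol, against 39.7, 40.6 and 36.5 TPM in standard ethanol, with no overlap (0.18, SE 0.07, adjusted p = 0.883). That is 2.78% of members higher, against 2.91% of all genes, and 0 lower, against 2.66%, while 0.00669% of all genes passed after adjustment. Htr1b, an inhibitory receptor of nerve terminals, was at 7.40, 7.52 and 7.99 TPM in enriched ethanol, against 5.17, 7.16 and 5.82 TPM in standard ethanol (0.32, SE 0.17, adjusted p = 0.894), also without overlap. Htr5a was at 5.98, 5.65 and 5.86 TPM in enriched ethanol, against 6.64, 6.60 and 6.73 TPM in standard ethanol (-0.18, SE 0.12, adjusted p = 0.941). Htr2c averaged 14.3 TPM in enriched ethanol and 18.4 TPM in standard ethanol (-0.36, SE 0.25, adjusted p = 0.941), and standard ethanol 1, with a choroid plexus marker sum of 436, held the highest of these 6 values. Without that library the value was -0.23. In all, 5 of 36 members did not overlap, 13.9% against 12% of all genes, with Htr1a and Htr4 as the other two. The median log2 fold change was 0.01 over members and -0.01 over all genes.

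Averaged over exposure, enrichment gave Chrm3 the smallest p of all members in any comparison. Chrm3 (chr13:9875486-10360847 on GRCm38, minus strand) averaged 43.1 TPM over the 6 enriched libraries and 38.0 TPM over the 6 standard libraries, or 0.18 on the log2 scale (SE 0.05, limma adjusted p = 0.471). In enriched saline it was at 42.1, 41.9 and 41.8 TPM, against 35.9, 34.6 and 40.9 TPM in standard saline, and with the ethanol libraries given above all 6 enriched libraries lay above all 6 standard libraries. No other tested member separated in this way, and the share of all genes that do was not computed. The log2 fold change of Chrm3 stayed between 0.15 and 0.21 in the 21 alternatives tried. Htr1b averaged 7.41 TPM in enriched and 5.87 TPM in standard libraries (0.32, SE 0.12, limma adjusted p = 0.585), with enriched saline values of 8.51, 5.83 and 7.20 TPM, against 4.87, 5.30 and 6.86 TPM in standard saline. Drd1 averaged 11.5 TPM in enriched and 8.27 TPM in standard libraries (0.49, SE 0.21, limma adjusted p = 0.614), and the value was 0.30 without standard ethanol 1. These 3 were the members with an unadjusted p under 0.05, 8.33% against 4.14% of all genes in the higher direction and 0 against 3.82% in the lower, and 0.0201% of all genes passed after adjustment. In the lower direction Chrna2 (-0.29, adjusted p = 0.713) and Chrm1 (-0.12, adjusted p = 0.762) came first. The value of Chrm1 was -0.20 without standard saline 1, -0.07 without standard saline 2, -0.08 without standard saline 3 or without standard ethanol 1, and -0.04 without both standard saline 2 and enriched saline 2. The median log2 fold change was 0.04 over members and 0.00 over all genes.

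**Figure D3:**
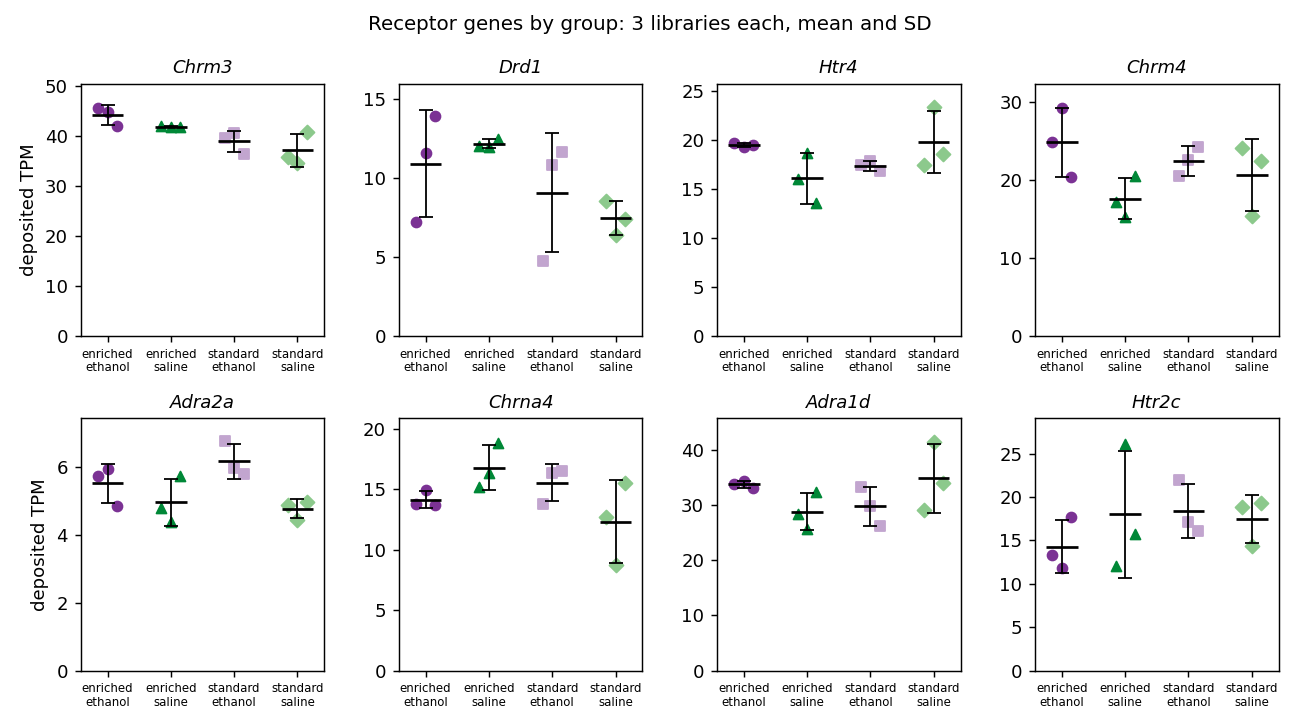
Deposited TPM of 8 receptor genes by group (linear axes from 0), with 1 point per library, a bar at the mean of 3 and whiskers of 1 SD. Chrm3 lies at 41.8 to 45.7 TPM in the 6 enriched libraries, against 34.6 to 40.9 TPM in the 6 standard libraries, and Htr2c reaches 26.1 TPM in 1 enriched saline library.

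Averaged over housing, ethanol gave an unadjusted p under 0.05 to Chrm4 and Adra2a, both higher, 5.56% of members against 3.97% of all genes. None were lower, against 4.05%, and 0.0134% of all genes passed after adjustment. Chrm4 averaged 23.6 TPM in ethanol libraries and 19.1 TPM in saline libraries (0.31, SE 0.12, adjusted p = 0.577). Leaving out standard saline 2 and enriched saline 2, where it was lowest, gave 0.16. Adra2a averaged 5.84 TPM in ethanol and 4.86 TPM in saline libraries (0.24, SE 0.10, adjusted p = 0.577), with enriched values of 5.74, 5.94 and 4.86 TPM after ethanol, against 4.79, 4.37 and 5.73 TPM after saline. Chrnb2 (-0.10, adjusted p = 0.685) and Adra1b (-0.27, adjusted p = 0.733) led in the lower direction, with Adra1b at -0.17 without standard ethanol 2. The median log2 fold change was 0.01 over members and 0.00 over all genes.

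The interaction, the effect of ethanol in enriched cages minus that in standard cages, was past an unadjusted p of 0.05 for Htr4 and Adra1d in the higher direction (5.56% of members, against 3.42% of all genes) and for Chrna4 in the lower (2.78%, against 3.99%). After adjustment no member passed, against 0.0134% of all genes. For Htr4 the effect was 0.28 in enriched and -0.17 in standard cages, a difference of 0.45 (SE 0.17, adjusted p = 0.620). For Adra1d the effect was 0.23 in enriched and -0.22 in standard cages, a difference of 0.45 (SE 0.18, adjusted p = 0.643), which was 0.24 without standard saline 2 and enriched saline 2. Chrna4 had effects of -0.23 in enriched and 0.36 in standard cages, a difference of -0.59 (SE 0.24, adjusted p = 0.643). Without standard saline 2 the difference for Chrna4 was -0.37. Htr7 was next (-0.49, SE 0.23, adjusted p = 0.679), at -0.31 without standard saline 2 and enriched saline 2. The median was -0.05 over members and -0.01 over all genes.

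Many of these values turned on standard saline 2. It held the highest value of 9 tested members (Adra1d, Chrm1, Chrna5, Chrna7, Chrnb2, Drd5, Htr1a, Htr3a and Htr4) and the lowest of another 9 (Adra1b, Adrb3, Chrm2, Chrm3, Chrna4, Hrh1, Hrh2, Htr5a and Htr7). That made it an extreme for 18 of 36 members, 50% against 24.8% of all genes tested. Enriched saline 3 was an extreme for 11 (30.6%, against 16.1%), and 10 of these were highest there. Htr5a, Htr7, Adra1b, Adrb3, Chrna4, Hrh1 and Hrh2 were highest in enriched saline 3 and lowest in standard saline 2, the libraries with the highest and lowest neocortex and subiculum markers. The part of neighbouring cortex in these values was not tested, and the share of all genes with both of these extremes was not computed. Drd5 was at 14.6 TPM in standard saline 2, against 6.42 to 10.1 TPM in the other 11 libraries.

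**Figure D4:**
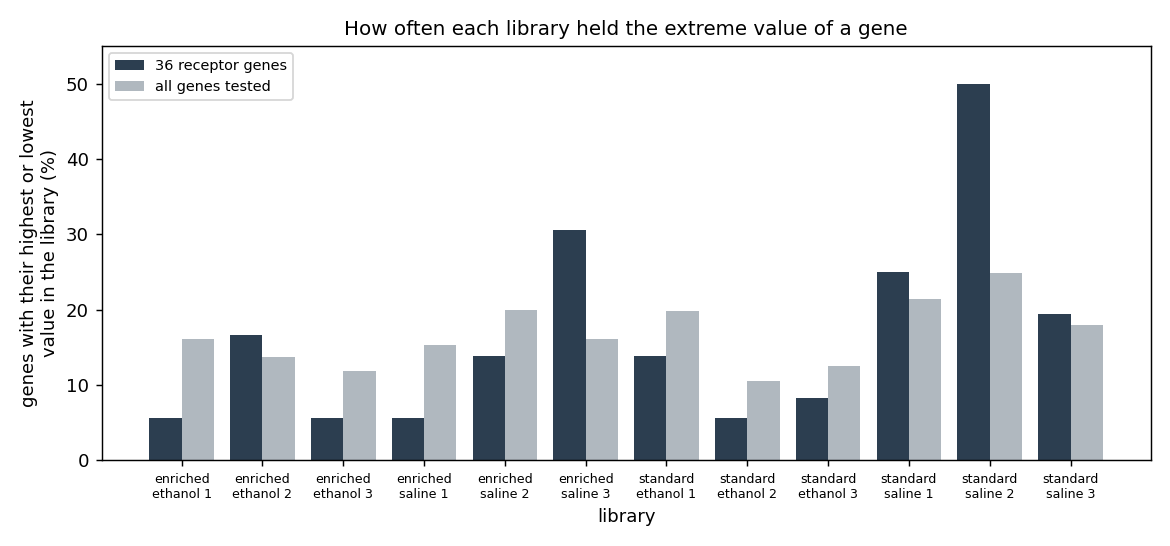
Share of genes (%) with their highest or lowest value of 12 libraries in each library, for the 36 receptor genes (dark bars) and all 14947 genes tested (light bars). Standard saline 2 held an extreme for 50% of the receptor genes, against 24.8% of all genes.

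Genes that make, store and clear these transmitters or carry the receptors' signals were read from 8 lists, of which 55 genes were tested. No gene of the lists passed an adjusted p of 0.05 in any comparison. Some genes of the transmitter neurons themselves were near 0. Chat and Slc18a3, of cholinergic neurons, averaged 0.235 and 0.101 TPM, and the noradrenaline, dopamine and serotonin transporters Slc6a2, Slc6a3 and Slc6a4 averaged 0.0478, 0.146 and 0.120 TPM. Genes of monoamine synthesis and storage were not all so low. Ddc averaged 6.70 TPM, Slc18a2 5.24 TPM, Hdc 2.57 TPM, Tph2 1.23 TPM and Th 1.05 TPM, while Dbh averaged 0.362 TPM. None of 7 markers of basal forebrain cholinergic neurons had a mean of at least 1.

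Adcy1, the calcium-stimulated adenylyl cyclase of the mossy fibre pathway, had the smallest p in 3 comparisons. It was at 336.5, 298.3 and 284.6 TPM in enriched ethanol, 268.6, 278.6 and 279.6 TPM in enriched saline, 256.3, 257.1 and 230.0 TPM in standard ethanol, and 308.2, 310.5 and 291.3 TPM in standard saline. Standard ethanol libraries lay below all others. The share of all genes with this pattern was not computed. Of the 10 dentate granule cell markers, C1ql2 and Trpc6 did the same and were picked after their values were seen. C1ql2 was at 41.1, 39.8 and 41.3 TPM in standard ethanol and at least 47.0 TPM in each other library. The 10 together did not follow this pattern. They summed to between 306.4 and 338.6 TPM in enriched ethanol, 281.4 and 344.8 TPM in enriched saline, 263.5 and 335.0 TPM in standard ethanol, and 332.9 and 472.2 TPM in standard saline. These ranges overlap between all groups, and the part of granule cells in the level of Adcy1 was not tested. The log2 fold change was -0.29 for ethanol in standard cages (SE 0.07, adjusted p = 0.271), 0.30 for enrichment in ethanol mice (SE 0.07, adjusted p = 0.595) and 0.44 for the interaction (SE 0.10, adjusted p = 0.509). Tmem35a, a chaperone of the alpha 7 nicotinic receptor, averaged 62.1 TPM in standard ethanol and 51.9 TPM in standard saline (0.26, adjusted p = 0.528). Ly6h, which restrains nicotinic receptors at the cell surface, averaged 248.0 TPM in enriched ethanol and 281.8 TPM in enriched saline (-0.19, adjusted p = 0.598), with an interaction of -0.38 (adjusted p = 0.525). Plcb3, a phospholipase C that Gq activates, averaged 10.3 TPM in enriched ethanol and 8.57 TPM in enriched saline (0.26, adjusted p = 0.625).

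Prima1, which anchors acetylcholinesterase in the membrane, averaged 1.24 TPM in enriched saline and 4.46 TPM in standard saline (-1.41, SE 0.41, adjusted p = 0.324), with 7.37 TPM in standard saline 2. Qdpr, which regenerates the cofactor of monoamine synthesis, averaged 180.8 TPM in enriched saline and 243.1 TPM in standard saline (-0.41, SE 0.12, adjusted p = 0.331). Oligodendrocytes also express it, and their summed markers ran from 3141 to 3872 TPM in enriched saline, against 3173 to 5419 TPM in standard saline, a part in the value of Qdpr that was not tested. Ddc, the decarboxylase that yields dopamine and serotonin, averaged 5.44 TPM in enriched ethanol and 9.33 TPM in standard ethanol (-0.73, SE 0.18, adjusted p = 0.765), and averaged over exposure it differed by -0.50 (SE 0.13, adjusted p = 0.415). Pcbd1, of the same cofactor cycle as Qdpr, differed by -0.36 between enriched and standard libraries (adjusted p = 0.585). For ethanol averaged over housing, Lynx1 (0.10, adjusted p = 0.687) and Adcy2 (-0.08, adjusted p = 0.703) had the smallest p.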

How the data were processed

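Libraries were made from total hippocampal RNA after ribosomal RNA depletion with a stranded kit, per the labels' protocols, and the submitters' processing notes name CASAVA, kallisto, sleuth and mm10, without versions. The table deposited by the authors holds 1 value per gene and library under the name TPM, but its columns do not share one sum, so the deposited values were treated as a signal proportional to TPM, where normalized TPM had been planned for. The test was the same. All value columns were matched to samples, with 0 left over.

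Symbols and positions came from GENCODE M21 on GRCm38 (35827 of 36119 identifiers had a symbol), and promoters from RefSeq. Values were analysed as log2(value + 0.5), which understates changes of low genes, keeping the 14947 genes that averaged 1 or more. Group means were fitted over all 12 libraries, leaving 8 residual degrees of freedom, with limma 3.58.1 (R 4.3.3) and a mean-variance trend. The fit was tested on simulated data and gave two-sided p-values for 7 contrasts, adjusted by Benjamini-Hochberg over all genes tested at a threshold of 0.05. For 1 tested receptor gene, counted in all totals, values are not reported here. Averages are given with the SD over 3 libraries where stated. The members, lists and tests were chosen with earlier results of these data known. Named for every library are the member with the highest mean of each family, any member averaging at least 0.5 whose highest library was over 3 times the median of the other 11 (none was) and, in each comparison, the 2 members with the smallest p in each direction, while of the lists the 2 genes with the smallest p are named. Hrh1, Drd2, Drd5 and the low members were named beyond this rule after their values were seen. The 21 alternatives comprised the pseudocount, the filter, the scaling, the trend, a replicate block and left-out libraries.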

Additional observations from a re-analysis of the deposited data

How the results depend on the processing

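No receptor gene passed the adjusted threshold in any of the 7 comparisons under any of the 21 alternatives, and no member named for its p turned its direction in that comparison. Htr2c, named for other reasons for ethanol in enriched cages, turned from -0.27 to 0.03 without enriched saline 2. Over all genes tested, the number passing moved by over 1.5 times, from 2 to between 0 and 7 for ethanol in standard cages, from 0 to at most 15 for ethanol in enriched cages, from 4 to between 1 and 20 for enrichment in saline mice and from 1 to between 0 and 21 for enrichment in ethanol mice. For the interaction it moved from 2 to between 0 and 12, for ethanol averaged over housing from 2 to between 0 and 10, and for enrichment averaged over exposure from 3 to between 0 and 11. Members with an unadjusted p under 0.05 ranged, for the same comparisons in the same order, from 0 to 3, 1 to 4, 1 to 13, 0 to 2, 1 to 6, 0 to 3 and 1 to 6. The cause of these shifts was not tested. For the alternatives, the share of all genes with an unadjusted p under 0.05 was not computed. With no filter on low values, 0 of the 14 low members passed the adjusted threshold. Drd3 had an unadjusted p under 0.05 for ethanol in standard cages, in enriched cages and averaged over housing. Htr2b had one for enrichment in saline mice and for the interaction. Both averaged under 1 TPM, and no share of all genes was computed for that setting.

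The replicate numbers in the sample titles were not treated as pairs. Same-numbered libraries of different groups correlated between -0.15 and 0.06 in their deviations over 18 pairs, against -0.09 to 0.12 for 36 other pairs, and 2 of 12 libraries correlated best with their own number. With the replicate number as a block, 0 members passed the adjusted threshold in every comparison, and 5 members in place of 7 had an unadjusted p under 0.05 for enrichment in saline mice. For enrichment in ethanol mice 0 members in place of 1 did, so that Chrm3 was no longer among them. The share of all genes under this criterion was not computed with the block. With no counts or depth given, precision rests on 3 libraries per group.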
